A study of Mus musculus with 30 samples.

Results

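Early G1 was compared with late G1 in mouse embryonic stem cells treated for 1 h with the auxin IAA to degrade SRCAP. The comparison rests on 4 RNA-seq libraries of the 30 samples in the series: 2 replicates of early G1 cells (EG1) and 2 of late G1 cells (LG1), all treated with IAA. They were taken from the sorted-cell count table by their labels, and each EG1 library was set against the LG1 library of the same replicate number. The 4 matching control libraries, in which SRCAP was kept, entered the same fit, where they share the estimate of the spread, and show the phase difference with SRCAP kept.

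The cells were the SYAT line, a derivative of CGR8 mouse embryonic stem cells. Both Srcap alleles of SYAT carry a YPet-AID tag, and the OsTir1 receptor is expressed from a lentivirus under the EF1a promoter, so that the auxin IAA triggers degradation of the tagged protein. The line comes from 1 homozygous clone, and all groups share these alleles. Routine medium in the study held serum, LIF and kinase inhibitors, and cells were moved to serum with LIF alone before experiments. A mCherry reporter that is destroyed in mitosis marked the time since division. EG1 cells had low Hoechst and low mCherry signal, and LG1 cells had low Hoechst and high mCherry signal. IAA was given at 500 µM for 1 h, whereas control cells were kept in auxinole, an inhibitor of OsTir1. With a 1 h treatment the protein was lost around mitosis in EG1 cells and within G1 in LG1 cells, so the moment of loss and the phase change together and cannot be told apart. The replicates are described as biological duplicates from separate cultures, and RNA was taken from nuclei.

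SRCAP is the ATPase that places the histone variant H2A.Z into nucleosomes, mainly near transcription start sites. In G1, cells first complete the return from mitosis, when transcripts made in the previous G2 and mitosis are still being cleared. Later they raise E2F-driven genes for DNA replication, and histone transcripts accumulate as S phase begins. Embryonic stem cells have a short G1 and keep high cyclin E activity, so the boundary between these programmes is less sharp than in somatic cells.

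Exon counts per library totalled 20439335 and 22615929 in IAA EG1 and 21558607 and 24382959 in IAA LG1. Intron counts were left aside because their content differed between phases: of 1993 single-exon genes, 44.8% to 45.6% held intron counts in the EG1 libraries and 0.0502% to 0.1% in the LG1 libraries. All 8 markers of mouse embryonic stem cells, Pou5f1 and Sox2 among them, were detected in every library with at least 1162 counts. Of 18 markers of 2-cell-like cells none had enough counts to be tested, 5 of 12 feeder or fibroblast markers did, and 6 markers of primitive endoderm were present with 7 to 1606 counts. Srcap, whose protein and not RNA was targeted, had normalised counts of 1179 and 1201 in IAA EG1 and 1367 and 1242 in IAA LG1, and 1295 and 1226 against 1237 and 1142 in the control. Its phase difference of -0.13 ± 0.07 (log2, SE) in IAA cells did not pass the test (adjusted p = 0.406). One library stood apart: IAA LG1 replicate 1 gave 1.66% of its exon counts to the rRNA gene CT010467.1, against 0.368% to 0.561% in the other 7. Results are therefore also given without that library where it matters.

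IAA-treated cells in LG1 held more RNA of histones, replication factors and DNA repair genes than cells in EG1, and genes that act in mitosis, Cdc20 and Plk1 higher in EG1 and Aurkb and Prc1 higher in LG1, were divided between the phases. Of 21020 genes tested, 41 were higher in EG1 (0.195% of those tested) and 172 were higher in LG1 (0.818%). Log2 fold changes are given throughout as EG1 over LG1, so negative values mean relatively more RNA in LG1 after scaling between libraries. Total RNA per cell was not measured. A gene was called at an adjusted p under 0.05 with a log2 fold change beyond 0.5 in either direction. The called differences spanned 0.501 to 1.51 in size for genes higher in EG1 and 0.502 to 3.27 for genes higher in LG1, whereas the median over all genes was -0.00986. Replicate 2 differed from replicate 1 in all groups, and the calls rest on comparing libraries within a replicate number. When the replicate number was left out of the fit, edgeR called 0 genes, with 485 genes at an unadjusted p under 0.05. Bulk libraries measure RNA summed over cells, so fewer cells of one kind and less RNA per cell cannot be told apart. The histone, replication and mitotic lists were also the markers set for S or G2/M cells in a G1 gate, whose share was not measured.

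**Figure D1:**
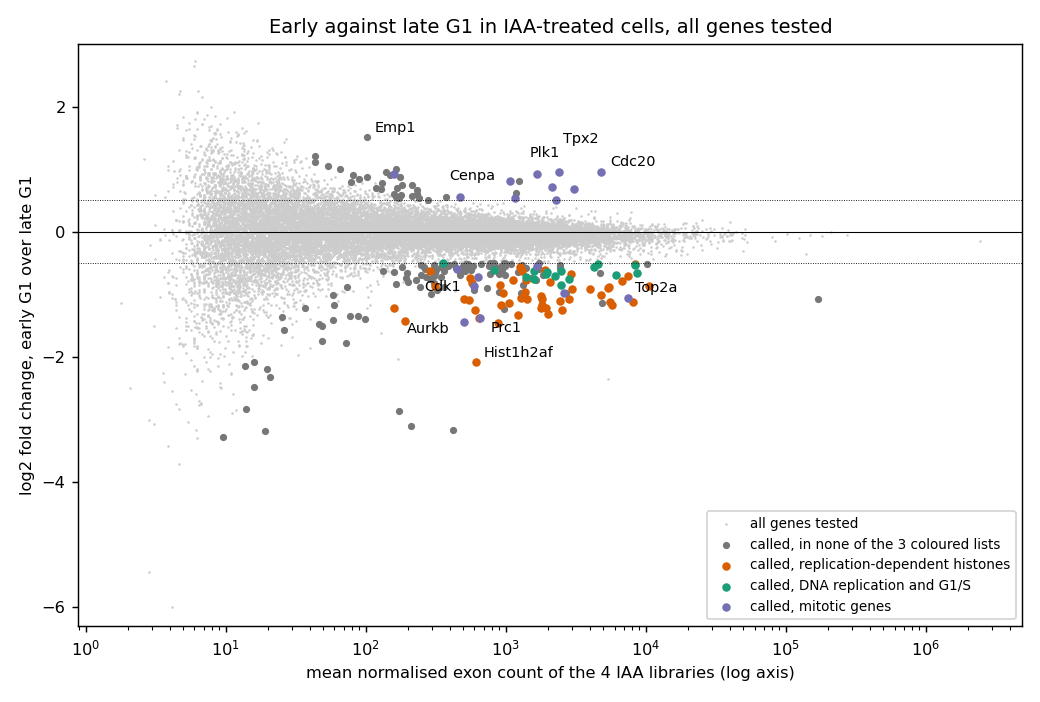
Log2 fold change of early over late G1 (vertical axis) against the mean normalised exon count of the 4 IAA libraries (horizontal log axis), 1 point per gene tested, with dotted lines at the fold threshold of 0.5. The 48 called histone genes lie below the line, and called mitotic genes lie on both sides of it.

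The 172 genes higher in LG1 were made up largely of cell cycle and chromatin genes. Histones accounted for 48 of them (27.9%), DNA replication and G1/S genes for 16, homologous recombination and Fanconi repair genes for 14, and G1 cyclin and E2F genes and mitotic genes for 8 each. Together 99 (57.6%) were in a cell cycle, histone, repair or centromere list. Chromosome 13, which carries the main histone cluster, held 54 (31.4%), and 46 of these were Hist1 genes already counted among the histones. Of the 41 genes higher in EG1, 10 (24.4%) were mitotic genes and 30 were in none of the lists. Both replicate pairs had the called sign for 41 of 41 genes higher in EG1 and 170 of 172 higher in LG1. The calls were made from these same pairs, so this agreement was largely set by the calling and is no separate evidence. Over the 12046 genes with a mean count of at least 100, the differences of the IAA pairs correlated at a Spearman value of 0.288. Without IAA LG1 replicate 1 the counts became 61 and 122, and 22 of the original 41 and 101 of the original 172 were still called, while 41 and 169 kept their sign. The count higher in EG1 fell to 24 without IAA EG1 replicate 1, to 27 without control EG1 replicate 2 and to 26 without control LG1 replicate 2. The count higher in LG1 was 294 without IAA EG1 replicate 2 and 372 without IAA LG1 replicate 2.

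Replication-dependent histone genes moved furthest as a group. These genes encode the core and linker histones that package new DNA, and their RNA is made and kept mainly in S phase. Of 58 tested, 48 were higher in LG1 and 0 higher in EG1, with a median log2 fold change of -0.94 against -0.0099 over all genes tested. Summed over the list, normalised counts were 74672 and 110930 in IAA EG1 and 120420 and 232480 in IAA LG1. The 2 LG1 sums lay above both EG1 sums, and replicate 2 was the higher of each pair. All 5 protein types took part: 4 of 5 H1 genes, 13 of 16 H2A genes, 13 of 15 H2B genes, 9 of 10 H3 genes and 9 of 12 H4 genes were called, with medians from -0.79 for H1 to -1.09 for H2B. The Hist1 genes on chromosome 13 held 46 of the 48. They span chr13:21715763-51203065 in GRCm38 because Hist1h2al lies far from the others. The Hist2 cluster on chromosome 3 held 2 of 5 tested, and neither the 2 genes of Hist3 nor the single gene of Hist4 was called. At any fold, 52 histone genes reached an adjusted p under 0.05, Hist4h4 among them (-0.47, adjusted p = 0.00075). Many histone genes are near-identical copies, so the share of reads given to each is uncertain. Without IAA LG1 replicate 1, 50 were called.

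Hist1h2af, an H2A gene at chr13:23533906-23534304 on the plus strand, had the largest called difference among genes with a mean count of at least 100, no clone-type name and the same sign in both pairs. It was counted 106 and 375 times (normalised) in IAA EG1 and 584 and 1394 times in IAA LG1, so both LG1 libraries were above both EG1 libraries. This was 4.25-fold more in LG1 (log2 -2.09 ± 0.164 SE, adjusted p = 1.4e-07). The H2B gene Hist1h2bk had 869 and 1441 against 2215 and 3528, a difference of -1.32 ± 0.068 with the smallest adjusted p of the comparison, 2.34e-09. Hist1h2bm, also an H2B gene, had 244 and 476 against 630 and 1242 (-1.38 ± 0.097). Its fold was nearly the same in each pair, -1.37 and -1.38. Hist1h3c, which encodes H3, had 977 and 2054 against 2487 and 4597 (-1.25 ± 0.08). Hist1h2ah (-1.46), Hist1h2ba (-1.43), Hist1h2ab (-1.32), Hist1h2ag (-1.25) and Hist1h2aa (-1.22) completed the histones among the 12 largest differences. Hist1h2ba and Hist1h2aa, whose products are known as testis-type variants, were the lowest of these, with 62.3 and 70.9 counts in EG1 replicate 1.

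**Figure D2:**
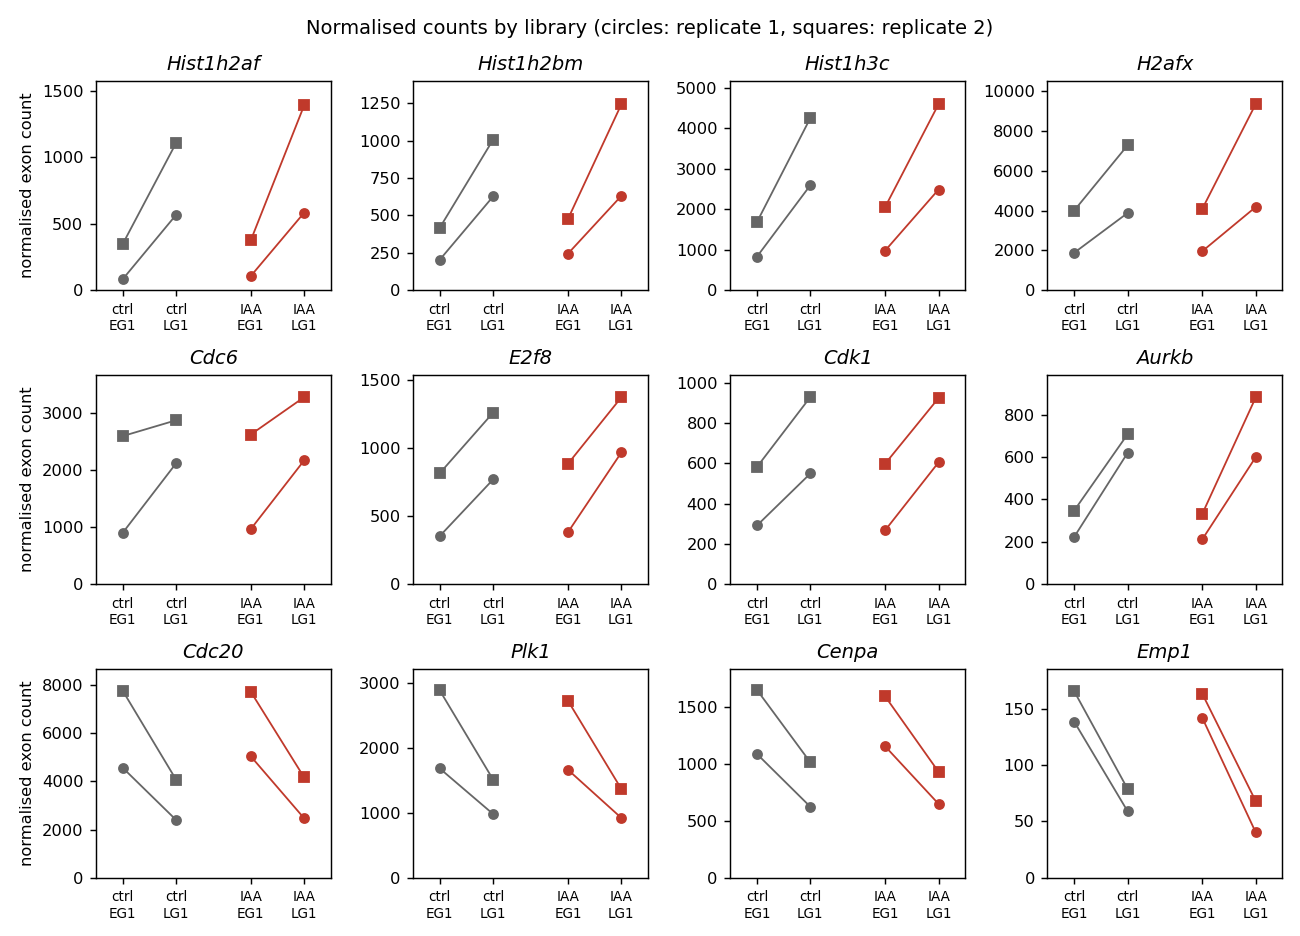
Normalised exon counts of 12 genes in each of the 8 libraries, with lines joining EG1 and LG1 of the same replicate (circles for replicate 1, squares for replicate 2, grey for control, red for IAA). Lines rise from EG1 to LG1 for histone, replication and E2F genes and fall for Cdc20, Plk1, Cenpa and Emp1, and Cdc6 shows EG1 replicate 2 above LG1 replicate 1.

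Replication-dependent histone mRNAs end in a short stem-loop instead of a poly(A) tail, and this element ties their stability to S phase. Its letters are shown because the histone results turn on genes of this kind, and because H2afx carries them. The histone stem-loop consensus was searched on the sense strand in the annotated GENCODE transcripts, and it was found in 37 of 58 histone genes tested. The lines give each form in the order of the transcript, 5′ to 3′, with the 2 arms of the stem in capitals and the loop in lower case.
Hist1h2bm, Hist1h2ab and Hist1h2ag: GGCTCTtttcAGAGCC
Hist1h2bk and Hist1h3c: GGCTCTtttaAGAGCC
H2afx: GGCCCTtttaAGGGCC
The first form occurred in 21 genes and the second in 5. Of the 37 histone genes with a stem-loop match 30 were higher in LG1, and of the 21 without one 18 were. A missing match says only that the letters are not in the annotated transcript, which for some of these genes may stop before the element.

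Histone variants listed as replacement variants, apart from the replication-dependent genes, behaved differently from one another. Of 11 tested, 1 was higher in LG1, 1 was higher in EG1 and 9 did not pass, with a median of 0.001. The one that was higher in LG1, H2afx, encodes the variant phosphorylated at DNA breaks and was the sole member with the stem-loop letters. It had 1961 and 4094 counts in IAA EG1 and 4184 and 9368 in IAA LG1 (-1.15 ± 0.07, adjusted p = 1.07e-08), and each LG1 library was above both EG1 libraries. The other 10 ranged from -0.30 to 0.80. H2afz and H2afv, which encode the 2 forms of H2A.Z, had differences of -0.06 ± 0.066 and 0.00 ± 0.071, and their 95% intervals of -0.20 to 0.08 and -0.15 to 0.15 exclude a difference of the size used for calling. Cenpa, the centromeric H3 variant, was the one higher in EG1, with 1155 and 1595 against 649 and 931 (0.80 ± 0.075, adjusted p = 1.46e-06).

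**Figure D3:**
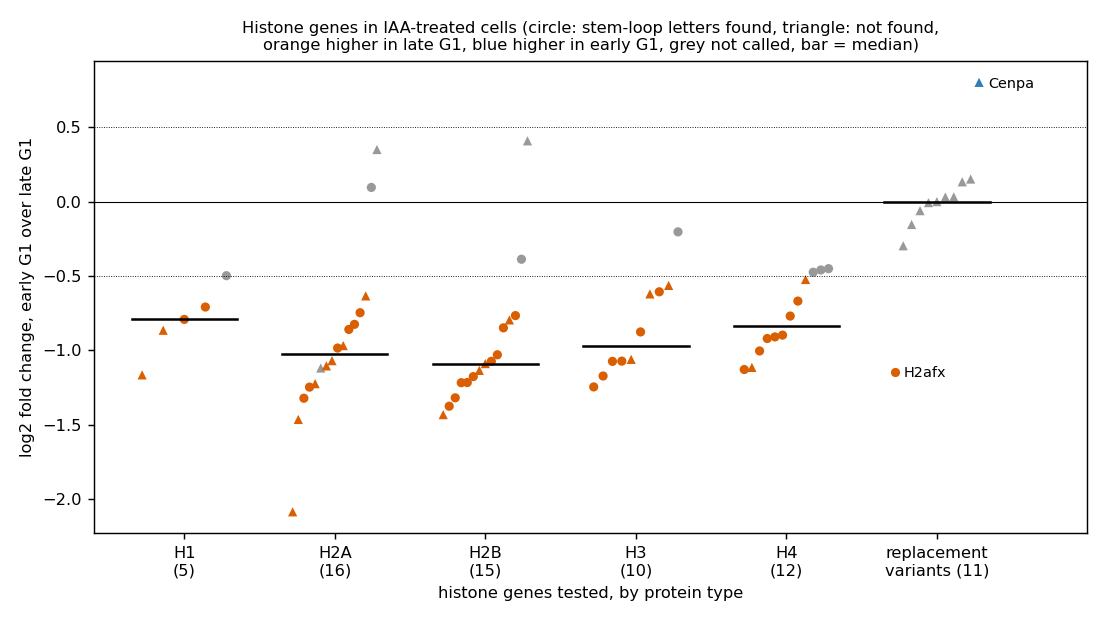
Log2 fold change of early over late G1 in IAA libraries (vertical axis) for each histone gene tested, by protein type, with bars at the medians (circles where the stem-loop letters were found, triangles where not). Replication-dependent types centre between -0.79 and -1.09, and among 11 replacement variants H2afx lies at -1.15 and Cenpa at 0.80.

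DNA replication and G1/S genes were higher in LG1 almost throughout, by smaller amounts than histones. All but 1 of the 65 tested had a negative log2 fold change, 40 reached an adjusted p under 0.05, and 16 were called, all higher in LG1. Over all genes, 2.15% were higher in LG1 and 0.49% higher in EG1 at that adjusted p without a fold limit. The list median was -0.38 against -0.0099 over all genes. Summed normalised counts were 154540 and 219720 in IAA EG1 and 205350 and 276930 in IAA LG1. The groups overlapped, because EG1 replicate 2 was above LG1 replicate 1, while LG1 was higher within each pair.

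The called members cover the steps from origin firing to chromatin assembly. Ticrr, which takes part in firing replication origins, had 1374 and 2224 counts in EG1 and 2930 and 3469 in LG1 (-0.86 ± 0.096, adjusted p = 1.51e-05). Exo1, a DNA exonuclease, had 799 and 1605 against 1560 and 2402 (-0.76 ± 0.091). Mcm10, a helicase partner, had 1540 and 2780 against 2970 and 4114 (-0.75 ± 0.099). In the first of these both LG1 libraries exceeded both EG1 libraries, in Exo1 the LG1 replicate 1 value fell below EG1 replicate 2, and in Mcm10 the groups did not overlap. Clspn, the replication checkpoint adaptor, gave -0.72 ± 0.085. Others called were Rrm2 (-0.70), which makes deoxynucleotides, Pola1 (-0.64), the catalytic subunit of the priming polymerase, the chromatin assembly subunits Chaf1a (-0.63) and Chaf1b (-0.62), the DNA methyltransferase Dnmt1 (-0.54) with its partner Uhrf1 (-0.65), and the sliding clamp Pcna (-0.52). The list count fell to 9 without IAA LG1 replicate 1.

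Cdc6, the loader of the replicative helicase, illustrates the spread between replicates. Its counts were 960 and 2615 in EG1 and 2163 and 3270 in LG1. Replicate 1 gave -1.17 and replicate 2 gave -0.32, with a fitted difference of -0.71 ± 0.174 (adjusted p = 0.0318). The call was lost without replicate 1 of IAA EG1 (-0.44) or of IAA LG1 (-0.43). Cdt1, the partner of Cdc6, had 5069 and 6918 against 6354 and 7762 and did not pass (-0.25 ± 0.071, adjusted p = 0.0794).

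Among G1 cyclins, CDKs, their inhibitors and the E2F family, 8 of 41 were higher in LG1 and 1 was higher in EG1, with a median of -0.19. Fbxo5, which encodes the inhibitor EMI1 that holds the anaphase-promoting complex off after G1, differed most, with 390 and 792 counts in EG1 and 1017 and 1709 in LG1 (-1.23 ± 0.089, adjusted p = 4.13e-08). Both LG1 values were above both EG1 values. E2f8, a repressive E2F, had 380 and 883 against 966 and 1372 (-0.95 ± 0.127), and the kinase gene Wee1 had 773 and 1122 against 1446 and 1974 (-0.86 ± 0.076). The activator genes E2f1 (-0.55) and E2f2 (-0.53), the pocket protein gene Rbl1 (-0.57) and the phosphatase gene Cdc25a (-0.58 ± 0.112) were also higher in LG1.

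The cyclins that drive G1 were split. Ccne2, a cyclin E, had 277 and 631 counts in EG1 and 494 and 762 in LG1 (-0.51 ± 0.124, adjusted p = 0.0287), so the groups overlapped and each pair moved the same way. Ccne1, the other cyclin E, had 1378 and 2745 against 1994 and 3364 and an adjusted p of 0.00833, but its difference of -0.41 ± 0.083 was under the fold limit. Ccnd2, a cyclin D, went the other way, with 498 and 398 against 316 and 289 (0.56 ± 0.124, adjusted p = 0.017). Both its EG1 libraries were above both LG1 libraries. Ccnd1 and Ccnd3 did not pass, at -0.04 ± 0.084 and -0.16 ± 0.073. The calls of Ccne2, Cdc25a and Ccnd2 did not hold without IAA LG1 replicate 1, where the differences were -0.33, -0.36 and 0.40, nor without IAA EG1 replicate 1. The count higher in LG1 was 4 and 5 without these libraries, and Ccnd2 also lost its call without IAA EG1 replicate 2.

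Genes that act in mitosis were divided between the phases. Of 78 tested, 10 were higher in EG1 and 8 were higher in LG1, 38 had an adjusted p under 0.05, and the median was 0.03. The summed counts of 125920 and 167620 in EG1 and 127390 and 159440 in LG1 overlapped and did not move together within the pairs.

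Among the 10 higher in EG1, Cdc20, the activator of the anaphase-promoting complex, at chr4:118432901-118437352 on the minus strand, had 5036 and 7712 counts in EG1 and 2463 and 4157 in LG1. That was 1.95-fold more in EG1 (0.96 ± 0.065, adjusted p = 2.3e-08), with no overlap between the groups. Tpx2, a spindle assembly factor, had 2673 and 3735 against 1378 and 1925 (0.96 ± 0.069), and the mitotic kinase gene Plk1 had 1663 and 2726 against 921 and 1367 (0.93 ± 0.071). Tpx2 had 0.96 in both pairs, and Plk1 had 0.85 and 1.00. Pttg1, the securin that guards separase, had 185 and 229 against 85.5 and 136 (0.92 ± 0.154). Hmmr (0.71), Bub1b (0.69), Ckap2l (0.56), Ccnb2 (0.54) and Cenpe (0.50) were the remaining members besides Cenpa.

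Among the 8 higher in LG1, Aurkb, the kinase of the chromosomal passenger complex, at chr11:69045647-69051664 on the plus strand, had 212 and 332 counts in EG1 and 601 and 883 in LG1. This was 2.73-fold more in LG1 (-1.45 ± 0.112, adjusted p = 1.08e-07), and the groups did not overlap. Prc1, which bundles midzone microtubules, had 350 and 377 against 860 and 1028 (-1.37 ± 0.094). Top2a, which untangles DNA, had 3807 and 6070 against 9036 and 11050 (-1.05 ± 0.083). Smc4, a condensin subunit, had 1638 and 1910 against 3415 and 3544 (-0.98 ± 0.067). In each of these 3 genes the LG1 libraries were above both EG1 libraries. Cdk1, the mitotic kinase, had 267 and 599 against 606 and 926, with pair values of -1.18 and -0.63 (-0.87 ± 0.109, adjusted p = 6.57e-05). Its partner gene Ccnb1, cyclin B1, had 1604 and 2653 against 2051 and 3065 and did not pass (-0.28 ± 0.074, adjusted p = 0.0508). Sgo1 (-0.72), Cep55 (-0.60) and Kif18b (-0.55) completed the 8.

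**Figure D4:**
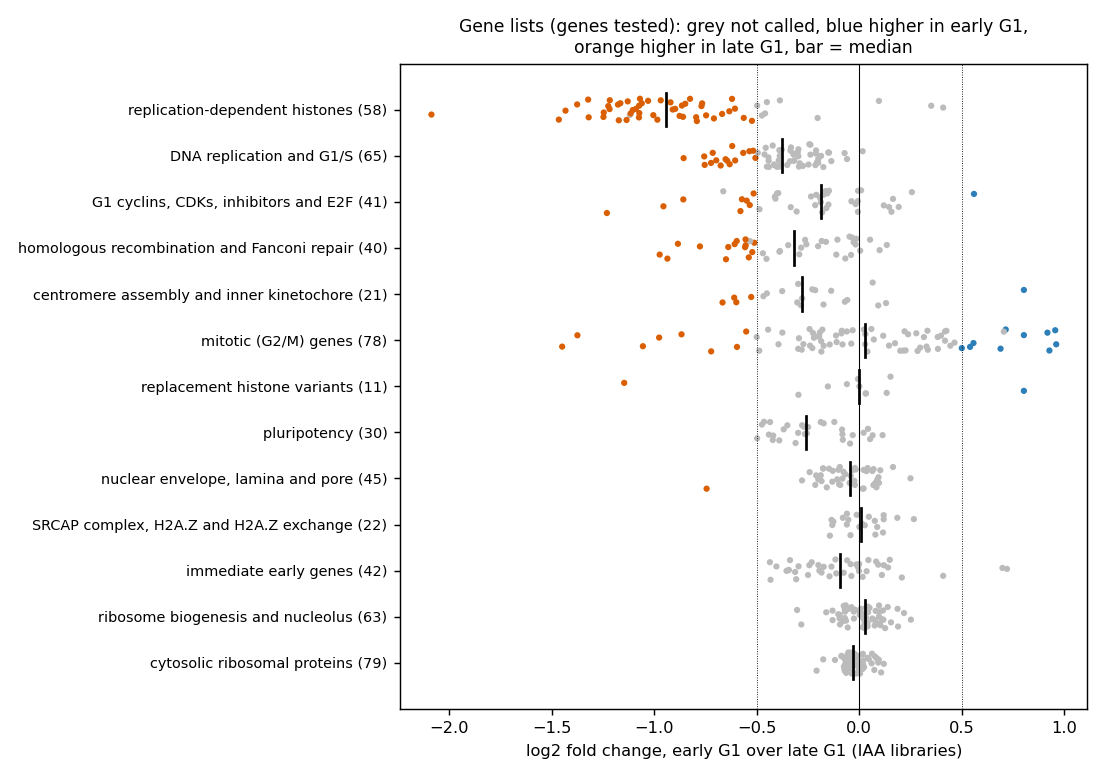
Log2 fold change of early over late G1 in IAA libraries (horizontal axis) for every tested member of 13 gene lists (rows, with numbers tested), bars at the list medians and dotted lines at the fold threshold of 0.5. Histones centre at -0.94 and replication genes at -0.38, mitotic genes spread from -1.45 to 0.96, and ribosomal protein genes stay close to 0.

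Homologous recombination and Fanconi repair genes, a list added after the values were seen, had 14 of 40 higher in LG1 and 0 higher in EG1, with a median of -0.32. Brca1, which directs break repair, had 1458 and 2239 counts in EG1 and 3375 and 3744 in LG1 (-0.97 ± 0.1, adjusted p = 4.97e-06). Its binding partner gene Bard1 had 1053 and 1396 against 1992 and 2175 (-0.78 ± 0.09). Both LG1 libraries were above both EG1 libraries in each. Polq, the polymerase of end joining by microhomology, had 214 and 297 against 510 and 430 (-0.88 ± 0.136), and the groups did not overlap. Without IAA LG1 replicate 1, 9 were called, and without IAA EG1 replicate 1, 8 were.

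The centromere and inner kinetochore list, also added after the values were seen, had 4 of 21 higher in LG1 and Cenpa higher in EG1. Among those higher in LG1 were Cenpu (-0.67), Cenpq (-0.60) and Cenpi (-0.53), which encode subunits of the inner kinetochore. Cenpu had 191 and 294 counts in EG1 and 368 and 395 in LG1, so both LG1 libraries were above both EG1 libraries. None of these 4 was called without IAA LG1 replicate 1, where Cenpu was at -0.47 and Cenpq at -0.46, or without IAA EG1 replicate 1, and 2 were called without control LG1 replicate 2.

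Promoter letters known from cell cycle genes were counted in RefSeq windows from 250 bases before to 50 after each transcription start (GRCm38.p6), which could be matched for 12673 of the 21020 genes. E2F factors bind near TTTCCCGC, TTTCGCGC, TTTGCCGC or TTTGGCGC, the CHR element of G2 and mitotic genes reads TTTGAA or TTCGAA, and CCAAT is bound by NF-Y. All were searched on both strands, and the CCAAT search was added after the values were seen. The E2F letters were present in 4.45% of all genes with a window, in 29 of 125 genes higher in LG1 (23.2%) and in 0 of 30 higher in EG1. The CHR letters were present in 16.5% of all, in 40.8% of genes higher in LG1 and in 46.7% of genes higher in EG1. CCAAT was present in 42.4%, 69.6% and 73.3% in the same order, and in 38 of 43 called histone genes (88.4%). A match is a description of the letters and not a bound site, and neighbouring histone genes share windows and near-identical sequence.

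The stretches below show the letters upstream of members called in each direction, 5′ to 3′ along the gene's strand, with the matched letters in capitals. The first 4 carry E2F letters and belong to genes higher in LG1.
Cdk1, chr10:69353024-69353055, minus strand: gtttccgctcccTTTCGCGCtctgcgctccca
Bard1, chr1:71103162-71103193, minus strand: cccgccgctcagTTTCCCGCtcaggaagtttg
Cdc25a, chr9:109875500-109875531, plus strand: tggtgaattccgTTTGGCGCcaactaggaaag
Hist1h2af, chr13:23533815-23533846, plus strand: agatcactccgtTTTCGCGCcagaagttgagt
The next 4 carry CHR letters. Cdk1 is higher in LG1 and the other 3 are higher in EG1.
Cdk1, chr10:69352966-69352995, minus strand: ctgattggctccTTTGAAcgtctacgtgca
Cdc20, chr4:118437353-118437373, minus strand: agacagttgggtTTTGAAgga
Depdc1a, chr3:159495405-159495432, plus strand: cgctcggagataTTCAAAtcagcagcgc
Ckap2l, chr2:129297225-129297254, minus strand: ttattggcgaatTTCAAAgtcgcggaagcc
Cdk1 thus has both kinds of letters in its window and Cdc20 has CHR letters without E2F letters. The last stretch has CCAAT on either strand 3 times and lies before Hist1h2bm.
Hist1h2bm, chr13:21721890-21722005, plus strand: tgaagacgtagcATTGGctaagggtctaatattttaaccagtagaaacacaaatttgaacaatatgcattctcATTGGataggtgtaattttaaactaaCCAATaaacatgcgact

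Few members of the remaining lists were called, while 30 of the genes higher in EG1 and 71 of those higher in LG1 were in no list. Pluripotency genes were on average slightly lower in EG1: 0 of 30 were called, 13 reached an adjusted p under 0.05, and the median was -0.26. Klf4 (-0.50 ± 0.07), Tbx3 (-0.46), Zfp42 (-0.42) and Esrrb (-0.39) encode factors of the naive network. Nanog had 1294 and 1197 counts in EG1 and 1784 and 1555 in LG1 (-0.42 ± 0.082, adjusted p = 0.00641), whereas Pou5f1 had 8596 and 10372 against 8558 and 12340 and did not pass (-0.12 ± 0.068). The Nanog libraries did not overlap between phases, and those of Pou5f1 did. The formative, primed and lineage list had a median of 0.11, with 24 of 37 tested above 0 and 13 below. Nodal, a signalling ligand of that list, was the only 1 called there (-0.50 ± 0.082), at the fold limit and against the direction of most members. It was not called in 11 of the alternatives, which was most of those run for named genes.

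The genes of the SRCAP complex, H2A.Z and H2A.Z exchange had 0 of 22 called and 0 at an adjusted p under 0.05 in edgeR, with a range from -0.14 for Znhit1 to 0.27 for Actr6. Only Kpna2, an importin that carries proteins into the nucleus, was called among 45 genes of the nuclear envelope and pore, with 1082 and 1191 counts in EG1 and 1640 and 2197 in LG1 (-0.74 ± 0.079). Immediate early genes had 0 of 42 called and 8 at an adjusted p under 0.05. Lists for ribosome biogenesis, cytosolic ribosomal proteins, the respiratory chain, heat shock, p53 targets, the ATF4 response, cholesterol synthesis and glycolysis had 0 called, with medians from -0.115 for glycolysis to 0.0266 for ribosome biogenesis. Long noncoding RNAs, mitochondrially encoded genes and the feeder markers also had 0 called. The nuclear long noncoding RNA Malat1 reached an adjusted p of 0.00122 at -0.36 ± 0.058, with 156609 and 87633 counts in EG1 and 204523 and 109853 in LG1. LG1 was higher within each pair, and EG1 replicate 1 exceeded LG1 replicate 2.

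Among the 12 largest increases in EG1 were also genes outside the mitotic list. Emp1, which encodes a membrane protein, at chr6:135362545-135383173 on the plus strand, had 142 and 163 counts in EG1 and 40.2 and 67.9 in LG1. It was 2.84-fold higher in EG1 (1.51 ± 0.192, adjusted p = 7.5e-05), and the groups did not overlap. Dmrta2, a transcription factor gene, had 229 and 212 against 122 and 99.2 (1.00 ± 0.148). Arhgef39 (0.96 ± 0.153) and Arhgap19 (0.81 ± 0.073) had 186 and 184 against 99.9 and 89.8, and 1354 and 1829 against 763 and 1057. Tent5c, a poly(A) polymerase gene, gave 0.88 ± 0.176, Sntb1, a syntrophin gene, gave 0.87 ± 0.142, and Depdc1a gave 0.90 ± 0.157.

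Some of the largest differences rested on the library that stood apart. Gm24187, annotated as a miRNA, had 73.0 and 2.05 counts in EG1 and 765 and 0 in LG1 (-3.10), and Gm24270 had 111 and 23.6 against 1514 and 25.1 (-3.16). In both, IAA LG1 replicate 1 was the only library of the 4 far above the others. Lars2 showed the same form, with 2048 and 485 against 18533 and 418, and its difference of -2.35 ± 0.633 did not pass (adjusted p = 0.0553). Without that library it was 0.86. The rRNA gene CT010467.1 was itself among the genes called higher in LG1 (-1.07, adjusted p = 0.0173). Its pair values were -1.58 and -0.34, and its control difference was -0.03. Of the 172 genes higher in LG1, 25 have clone-type names and 22 have mean counts under 100, and 14 had the opposite sign in the control, 10 of them with clone-type names. These genes were chosen after their values were seen.

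The same phase comparison in control cells gave 39 genes higher in EG1 (0.186%) and 113 higher in LG1 (0.538%). Without the replicate number in the fit, the control also gave 0 calls in edgeR, with 303 genes at an unadjusted p under 0.05. The control had the same sign for 40 of 41 IAA calls higher in EG1 and 158 of 172 higher in LG1. The control count higher in EG1 moved most with single libraries, to 10 without control LG1 replicate 2, 13 without control EG1 replicate 2, 17 without control LG1 replicate 1, and 66 and 68 without IAA LG1 replicates 1 and 2. The control called 17 of the 41 (41.5% of the IAA list and 43.6% of the control list) and 97 of the 172 (56.4% and 85.8%). Median differences of the IAA calls were 0.744 in IAA and 0.507 in control cells for EG1, and -0.777 and -0.577 for LG1. Since these genes were chosen by their IAA values, the smaller control medians are a description.

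**Figure D5:**
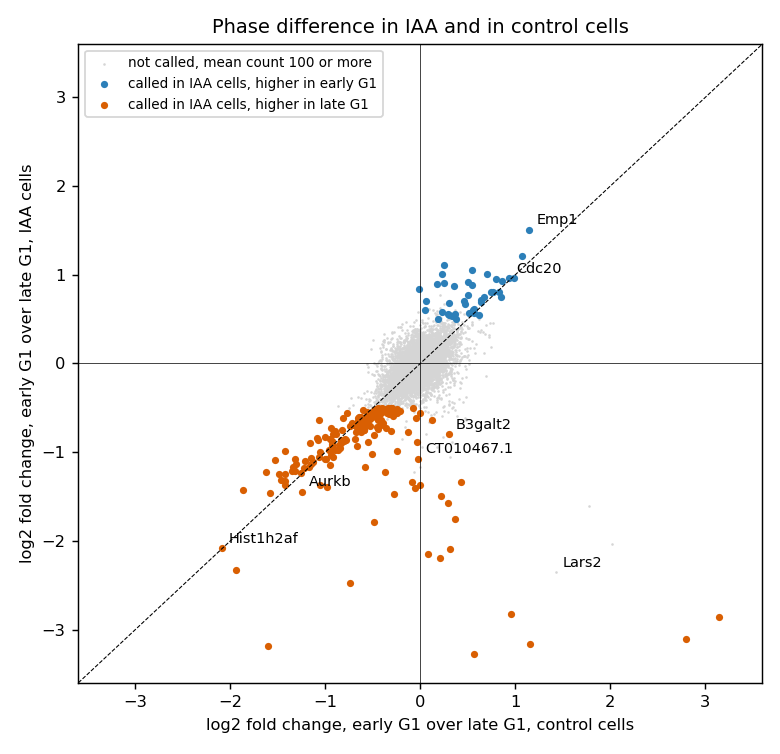
Log2 fold change of early over late G1 in IAA cells (vertical axis) against the same in control cells (horizontal axis), 1 point per gene, with the dashed line at equality. Most called genes lie near the line, and a few LG1 calls with Lars2 and the clone-type genes lie far below it.

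Whether the phase difference itself changed with SRCAP loss was tested as an interaction. In edgeR 0 genes were called (0%), with the smallest adjusted p at 0.999, and 855 genes (4.07%) had an unadjusted p under 0.05. DESeq2 also gave 0 at an adjusted p under 0.05 and 186 at an unadjusted p under 0.05. Without IAA LG1 replicate 2, which leaves the library that stood apart as the single IAA LG1 sample, edgeR called 1 and 72, and without any other 1 library it called at most 4 in a direction. Interaction estimates were 0.01 ± 0.23 for Hist1h2af, 0.03 ± 0.09 for Cdc20, -0.05 ± 0.24 for Cdc6, -0.08 ± 0.15 for Cdk1 and -0.20 ± 0.16 for Aurkb. Larger estimates were found in other called members, such as 0.44 for Hist1h2ae (unadjusted p = 0.00683) and -0.31 for Mms22l (unadjusted p = 0.00701). At an unadjusted p under 0.05 there were 5 of 58 histones, 1 of 65 replication genes, 3 of 78 mitotic genes and 3 of 40 repair genes. Mitochondrially encoded protein genes had 5 of 7, with a median phase difference of -0.08 in IAA and -0.25 in control cells. The median interaction of that list, 0.18, was the largest of the lists tested. Over lists, the median interaction was 0.09 for histones, -0.07 for replication genes, -0.03 for mitotic genes and -0.0072 for all genes tested. Histones had control calls of 52 against 48 in IAA cells, with a control median of -0.999. In simulated data, 41% of genes whose phase difference changed by 0.5 and 82% of those changed by 1 were recovered by the interaction test at an adjusted p under 0.05. Counts were drawn around means fitted by replicate number only, so the excess of IAA LG1 replicate 1 was not simulated. The changed genes had a mean count of at least 50, so the shares do not cover genes with lower counts.

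The study states an unadjusted p under 0.05 with a log2 fold change beyond 0.25 for IAA against control within sorted phases, on intronic reads. Its other RNA comparisons used adjusted p-values. Applied here in edgeR to exon counts of IAA EG1 against IAA LG1, the looser thresholds gave 760 genes (3.62%) higher in EG1 and 1279 (6.08%) higher in LG1. The looser rule carries no correction for the number of genes tested.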

How the data were processed

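Nuclear RNA of sorted SYAT cells was sequenced by the authors from directional libraries (NEBNext Ultra II), and the deposited table holds whole-number exon and intron read counts per gene, made with STAR and featureCounts on mm10, with SAMtools and Picard, per the submitters' processing notes and the study's methods. The strand setting of the counting is not given in the sources used here. Exon counts of all 8 sorted libraries were used as deposited, and intron counts only for the check given above.

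Genes were filtered with filterByExpr (minimum count 10, minimum total 15), scaled by TMM and tested with edgeR 4.0.16 (R 4.3.3, limma 3.58.1), with quasi-likelihood fits of group and replicate number and Benjamini-Hochberg adjustment over 21020 genes. The fit had 3 residual degrees of freedom and a common biological coefficient of variation of 0.0554. Calls needed an adjusted p under 0.05 and a log2 fold change beyond 0.5. Normalised counts are counts divided by the TMM-scaled library size relative to the mean of the 8 libraries. The ± values are standard errors of log2 fold changes, and pair values are log2 ratios of normalised counts with 0.5 added.

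Replicate deviations correlated between groups at 0.39 to 0.60 in all 6 pairs of groups, and the first principal component (45.4% of variance) separated the replicate numbers, so the numbers were taken to pair the samples, as a pattern of the data. With 2 libraries per group, p-values rest on the spread of the duplicates in all groups, moderated by a spread shared across genes. The shared part had a prior of 15.3 degrees of freedom beside the 3 residual ones. No spread beyond these duplicates was measured. Gene symbols came from GENCODE vM21, where 55141 of 55401 identifiers matched. On simulated data for the IAA phase comparison over 21020 genes, 72% of genes changed by 0.5 and 93% of those changed by 1 (log2) reached an adjusted p under 0.05. With the fold limit added, 41% and 93% were called. Among the unchanged genes, 11 reached an adjusted p under 0.05.

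Named genes were the 12 largest called differences per direction with a mean count of at least 100, no clone or pseudogene name and the same sign in both pairs, the 4 smallest interaction p-values per direction, up to 4 called members per list with a mean count of at least 50, and a fixed set of cell cycle and H2A.Z genes. Other genes were named after their values were seen. Members and lists were chosen with earlier results of these data known. Alternatives were other scalings, filters, DESeq2 1.42.0, fits without the replicate number, fits to fewer libraries and other thresholds. No set test was run. Some members of the lists are counted but not reported here.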

Additional observations from a re-analysis of the deposited data

Results flagged for a closer look

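Among the 64 genes chosen by the naming rule, 8 of them for a small interaction p, 7 had one sign in both IAA pairs and the other in both control pairs, which marked them for a closer look. Over all 21020 genes tested, 1740 had this pattern. The interaction, given here as the IAA phase difference minus the control phase difference on the log2 scale, was -0.47 for Strn3, -0.77 for Kansl1l, -1.1 for B3galt2, -0.21 for Srcap, 0.32 for Gtf2e2, 0.34 for Bmf and 0.39 for Tpm3-rs7. None passed the test of that difference, with an adjusted p of 0.999 for each and unadjusted p-values from 0.000272 for Strn3 to 0.0433 for Srcap. For B3galt2, whose IAA phase difference was called at -0.80, the IAA pairs were -1.43 and -0.13 and the control pairs 0.45 and 0.11, so the value rests mainly on replicate 1. Tpm3-rs7 is named as a copy related to a tropomyosin gene, so its reads are uncertain.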

How the results depend on the processing

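The replicate number decided the calls. Without a replicate block both phase comparisons gave 0 higher in EG1 and 0 higher in LG1, and all 48 named genes called in IAA cells lost their call. Under total exon counts the all-gene median moved to 0.0661 and IAA calls were 63 and 114, so that 35.6% of them were higher in EG1 against 19.2% with TMM. With no filter the counts higher in EG1 were 82 in IAA and 66 in control cells, and the interaction had 1 and 30. DESeq2 gave 12 higher in EG1 in IAA and 16 in control cells, and with shrinkage on the 4 IAA libraries 7 and 60. Among 8617 genes overlapping no other, 85 were higher in LG1 in IAA cells, and the control gave 23 and 68. At the unadjusted rule the control gave 691 and 846 and the interaction 282 and 509, beside 760 and 1279 in IAA cells. Beyond a fold of 1 the counts were 6 and 56 in IAA and 5 and 33 in control cells. Leaving out 1 library in turn gave 24 to 61 higher in EG1 and 121 to 372 higher in LG1 in IAA cells, 10 to 68 and 80 to 127 in control cells, and 0 to 1 and 0 to 72 for the interaction. The upper values of 372 and 72 came without IAA LG1 replicate 2, which leaves the library that stood apart as the lone LG1 sample, assumed to vary like the others. No named call changed direction. The calls lost most often were B3galt2 and Nodal (11 alternatives each), Cenpq and Ccne2 (8 each) and Cdc6 (7). All of these but Cdc6 thus lost their call in most of the alternatives run for named genes. Depth was similar across libraries, and the number of replicates limits the precision.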

Other observations

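Several genes outside the lists followed the histone and replication genes, and they were chosen after their values were seen. Cdca5, which encodes sororin, a protector of sister chromatid cohesion, was higher in LG1 (-0.98, adjusted p = 1.06e-05). Fam111a, a protease gene linked to replication, gave -0.90, and Pclaf, a partner of the sliding clamp, gave -0.93. Esco2, which acetylates cohesin, gave -0.58. In EG1, Spag5, a spindle protein gene, gave 0.61, and the transcription factor genes Bcl11a and Foxa1 gave 0.74 and 0.90. Of the genes in no list and without clone-type names, 26 were higher in EG1 and 46 were higher in LG1.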
